A study of Mus musculus with 3 samples.

Results

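The nuclear-encoded subunits of oxidative phosphorylation were compared, complex by complex, across parietal, zymogenic and pit cells of the mouse stomach. Members were the genes whose symbols begin with Ndufa, Ndufb, Ndufc, Ndufs or Ndufv and a digit, with Uqcr, with Cox followed by 4i, 5, 6, 7 or 8, or with Atp5, together with Sdha, Sdhb, Sdhc, Sdhd, Cyc1 and Cycs. Assembly factors named Ndufaf were left out. The rule used names and no measured value. Among the 18194 genes with a probe set that names 1 gene alone it found 83: 35 of complex I, 4 of complex II, 9 of complex III, 17 of complex IV, 17 of complex V and cytochrome c itself. Each gene was read from 1 probe set, the one with the highest mean over the arrays.

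The respiratory chain passes electrons from NADH through complex I, or from succinate through complex II, to ubiquinone. Complex III hands them on to cytochrome c, and complex IV gives them to oxygen. The proton gradient that complexes I, III and IV build is spent by complex V, the ATP synthase. Parietal cells, which secrete acid with a pump that consumes ATP, are known for being packed with mitochondria. Zymogenic cells make and store digestive enzymes, and pit cells make the surface mucus.

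Each lineage was measured on 1 Affymetrix Mouse Genome 430 2.0 array, hybridised with amplified, biotin-labelled RNA of cells cut out by laser-capture microdissection. The labels name no strain, sex, age or genotype of the mice. Parietal cells were picked in the pit zone by lectin binding and autofluorescence. Zymogenic cells were taken at the base of the units on slides of their own, after parietal cells there had been discarded, and pit cells were taken near the top of the same units as the parietal cells. RNA of several mice and dissections was pooled for each lineage, so there is no replicate, no error between mice and no test between lineages, and for the zymogenic cells the slides cannot be told apart from the lineage. The molecule label names nuclear RNA and the design text total RNA. In bulk samples such as these, fewer cells of a type and less RNA per cell cannot be told apart.

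The marker genes of each lineage were highest in summed intensity on the array of that name, except those of pit cells. Summed intensity was 5934 in parietal, 1344 in zymogenic and 622 in pit cells for 13 parietal markers. Over the 5 of them above the detection floor in both parietal and zymogenic cells, the median log2 difference of parietal minus zymogenic was −0.16. Of these 5, 2 were at least 2-fold higher in parietal cells and 1 at least 2-fold lower. Atp4b read 4402 in parietal, 793 in zymogenic and 102 in pit cells, but Atp4a read 214, 261 and 12.5 in that order. For 9 zymogenic markers summed intensity was 1460 in parietal, 26690 in zymogenic and 215 in pit cells. The 13 pit markers summed to 22916 in parietal, 256 in zymogenic and 17334 in pit cells. Gkn1 (10493 in parietal and 8307 in pit cells) and Gkn2 (7987 and 2723) made up most of the parietal and pit sums. Over the 12 pit markers above the detection floor on both of these arrays, the median log2 difference of parietal minus pit was −0.44. By at least 2-fold, 3 were higher and 4 lower in parietal than in pit cells. Of the 13 pit markers, 12 were above the detection floor in parietal, 3 in zymogenic and 13 in pit cells, so transcripts known from pit cells were plentiful on the parietal array. Muc5ac, the defining mucin of pit cells, read 425 in parietal, 14.5 in zymogenic and 1225 in pit cells. The spiked-in transcripts BioB and BioC averaged 299.8 with the parietal RNA, 700.3 with the zymogenic RNA and 700.6 with the pit RNA, while the spike-in Cre read 9453, 9117 and 9268 with these RNAs in that order. The array median was 4.50 for parietal, 4.81 for zymogenic and 4.64 for pit cells. The ratio of the 3′ to the 5′ probe set of actin, which grows as labelled copies lose their 5′ ends, was 26.1 for parietal, 14.7 for zymogenic and 9.04 for pit cells.

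A value counted as above the detection floor when it exceeded an intensity of 23.3, which was set on 78 probe sets for olfactory and vomeronasal receptors. Of the 83 members, 55 were above the floor on all 3 arrays, 8 on a pair of arrays, 9 on a single array and 11 on none. The parietal array had 70 members above it, the zymogenic array 59 and the pit array 61. Medians below cover the members above the floor on every array compared, so they describe the brighter members and not all 83. The member probe sets held 3.69% of the signal summed over genes in parietal cells, 2.43% in zymogenic cells and 2.67% in pit cells.

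Complexes I and III and most of complex V were highest on the parietal array. In the deposited values the medians of these complexes were much alike on the zymogenic and pit arrays. In those values complex IV, by contrast, was nearly as high on the pit array as on the parietal array and low on the zymogenic array. The median log2 difference of parietal minus pit was 1.17 over 26 members of complex I, 1.5 over 5 of complex III and 1.18 over 14 of complex V, but 0.23 over 9 of complex IV. Scaling to the spike-ins BioB and BioC, which read lower on the parietal array, gave 1.46 in complex IV and 2.39 in complex I, where all genes had 1.09, so complex IV was then not near level between parietal and pit cells. For zymogenic minus pit the median was 0.27, 0.19 (5 members) and 0.02 (12 members, −0.03 when arrays were scaled to 1 median) in complexes I, III and V, but −1.07 in complex IV. The 12 members of complex V ran from −1.46 to 1.20, with 6 lowest in zymogenic and 6 in pit cells. Quantile normalization gave 0.77, 0.53 and 0.46 in complexes I, III and V and −0.58 in complex IV, where all genes had 0.06. Parietal minus zymogenic did not part the complexes in this way, with medians of 0.95 (28 members), 1.14 (6), 1.21 (10) and 1.15 (12) in complexes I, III, IV and V. Complex II had 2 members above the floor on all arrays, with medians of 0.90 for parietal minus zymogenic and −0.15 for zymogenic minus pit, where quantile normalization gave 0.27. Its 4 members above the floor on both the parietal and the pit array had a median parietal minus pit of 0.27. Over all genes the medians were 0.47 for parietal minus zymogenic (1497 genes), 0.09 for parietal minus pit (1984 genes) and −0.16 for zymogenic minus pit (1277 genes).

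**Figure D1:**
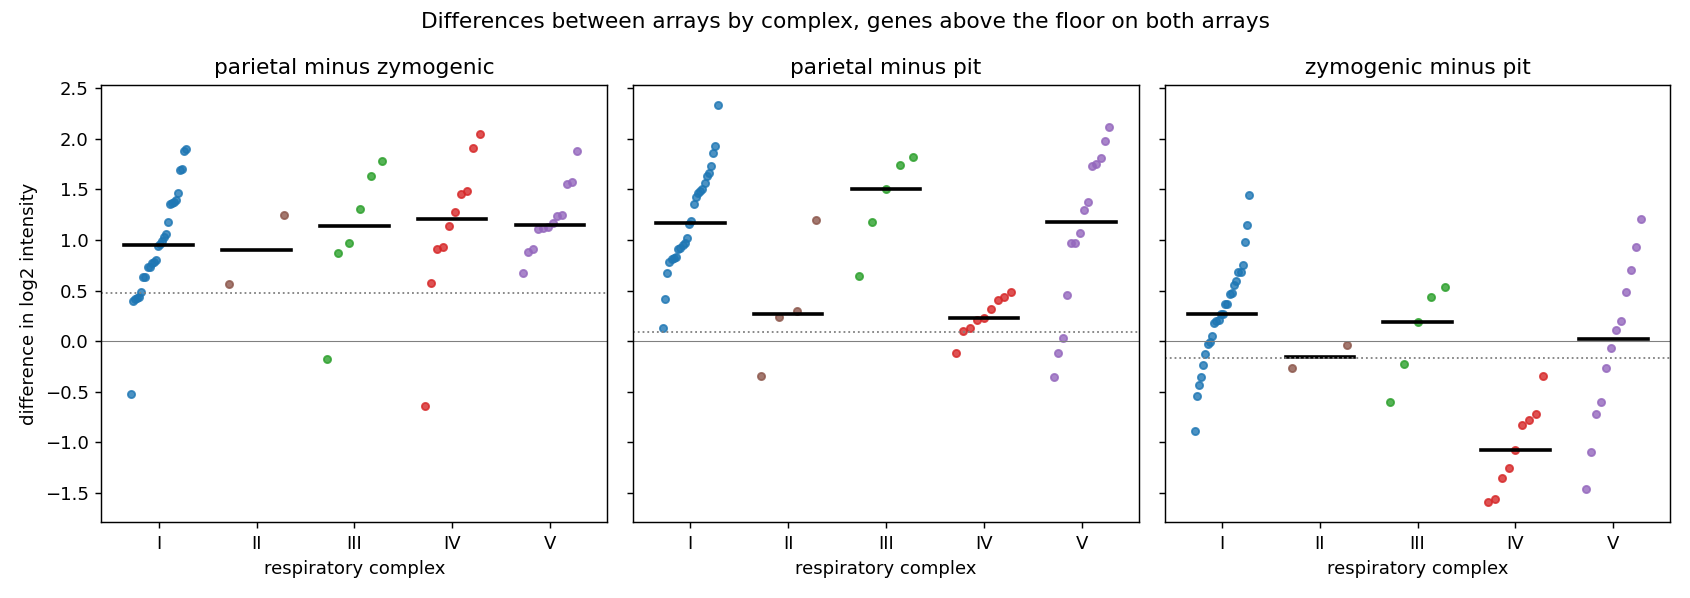
Log2 difference in intensity of each member between arrays (vertical axis) by complex, with a panel for each pair of arrays. Each point is 1 gene above the floor on both arrays of the pair, ordered by value within its complex. The black bar is the median of the complex and the dotted line the median of all genes. Cycs is not drawn. The 9 points of complex IV lie between −0.12 and 0.48 for parietal minus pit and between −1.59 and −0.34 for zymogenic minus pit.

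Members past 2-fold were counted in each pair. Of 59 members measured on both arrays, 32 read at least 2-fold higher in parietal than in zymogenic cells and 0 as much lower, where 27.9% and 7.75% of all genes were. These became 6 higher and 1 lower after quantile normalization, and 56 and 0 after scaling to BioB and BioC. Against pit cells, 28 of 59 members were at least 2-fold higher in parietal cells and 0 lower, against 16.1% and 9.27% of all genes, and 57 and 0 were after scaling to BioB and BioC. The 28 held 15 members of complex I, 4 of complex III, 8 of complex V, 1 of complex II and none of complex IV. Zymogenic cells were at least 2-fold higher than pit cells in 3 of 55 members and lower in 8, where 11.6% and 22.4% of all genes were, and quantile normalization turned this to 10 higher and 3 lower. Of the 8 lower ones 5 belonged to complex IV. All 9 measured complex IV members had their lowest value on the zymogenic array, as did 52.5% of all genes and 28 of the 55 members. The pit array was the lowest for 18 of 26 complex I members and 0 of 9 complex IV members, and for 35.7% of all genes. The parietal array was the highest for 52 of 55 members, against 51.8% of all genes. The 3 exceptions were Ndufa1, highest on the zymogenic array, and Cox7a2l and Atp5d, highest on the pit array by their main probe sets.

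**Figure D2:**
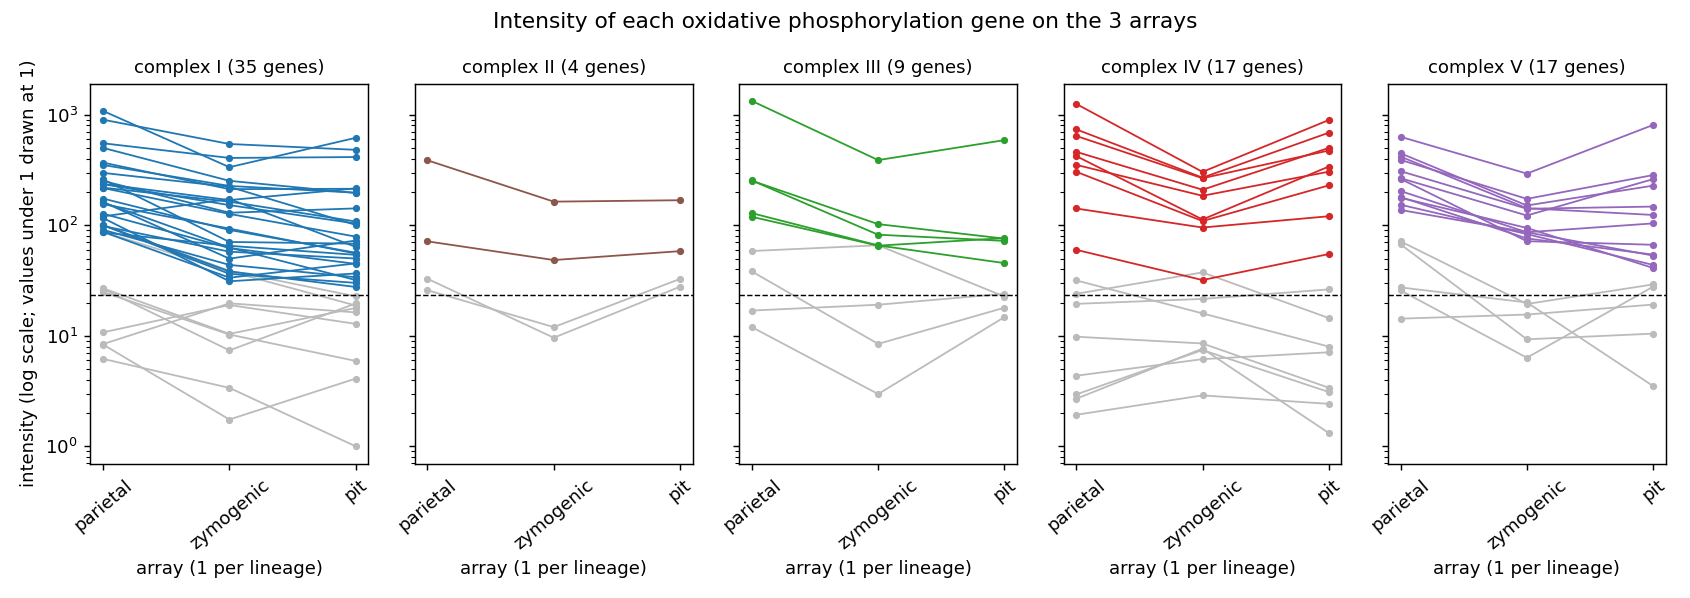
Intensity of the members (log scale) on the parietal, zymogenic and pit arrays, with a panel for each complex. Each line joins the values of 1 gene, in colour where all 3 values were above the detection floor of 23.3 (dashed line) and in grey otherwise. Values under 1 are drawn at 1. Coloured lines of complex IV dip at the zymogenic array and return at the pit array, while most lines of complex I drop after the parietal array and stay low.

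Promoters of a few members with unlike values across the arrays are shown because the genes of the respiratory chain are known for a few shared promoter motifs. Windows of 300 bases, 250 before and 50 after the start of the gene, were taken from RefSeq on the assembly GRCm38.p6 and matched 67 of the 83 members with 72 windows. The motif of NRF1, spelled GCGCNTGCG, was searched on both strands and was in 33.3% of member windows against 6.31% of all 32851 windows. It was in 8 of 33 windows of complex I, 2 of 3 of complex II, 3 of 5 of complex III, 9 of 18 of complex V and 1 of 12 of complex IV. The 12 windows of complex IV include those of Cox6b2, Cox7a1, Cox7b2, Cox7c and Cox8b, which were not above the floor on all arrays. Cox4i1 and Cox6c, which were, had no window, so these shares are not those of the measured complex IV members. The ETS motif of GABPA, spelled CCGGAAG, was in 23.6% of member windows and 8.86% of all windows. It was in 4 of 33, 2 of 3, 2 of 5, 3 of 12 and 6 of 18 windows of complexes I to V. The YY1 motif, spelled AANATGGCG, was in 12.5% and 2.38%, and the ESRRA motif, spelled AAGGTCA, in 11.1% and 4.72%. In complexes I to V, YY1 was in 6 of 33, 0 of 3, 0 of 5, 0 of 12 and 3 of 18 windows. ESRRA was in 3 of 33, 1 of 3, 0 of 5, 0 of 12 and 4 of 18. With such low shares over all windows, 0 of 12 does not set complex IV apart. The SP1 motif, spelled GGGCGG, was in 41.7% of member windows and 35.7% of all windows. It was in 15 of 33, 2 of 3, 0 of 5, 6 of 12 and 6 of 18 windows of complexes I to V. ETS and SP1 motifs overlapped each other in 1 member window.

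The windows below are the 250 bases before the start, printed 5′ to 3′ on the strand of the gene, with every match to these motifs in capitals. They are of the complex IV genes with the most negative zymogenic minus pit (Cox5a and Cox6a1), the genes of complexes I and V with the largest parietal minus pit among those with 1 window (Ndufa12 and Atp5g3), and Cycs, and they were chosen after the values were seen.
Cox5a, chr9:57520982-57521231, plus strand: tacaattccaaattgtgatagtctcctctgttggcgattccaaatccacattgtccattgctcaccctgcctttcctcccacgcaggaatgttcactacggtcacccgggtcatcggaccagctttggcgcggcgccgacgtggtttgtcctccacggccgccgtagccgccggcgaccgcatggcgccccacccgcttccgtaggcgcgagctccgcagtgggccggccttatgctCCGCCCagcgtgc
Cox6a1, chr5:115348959-115349208, minus strand: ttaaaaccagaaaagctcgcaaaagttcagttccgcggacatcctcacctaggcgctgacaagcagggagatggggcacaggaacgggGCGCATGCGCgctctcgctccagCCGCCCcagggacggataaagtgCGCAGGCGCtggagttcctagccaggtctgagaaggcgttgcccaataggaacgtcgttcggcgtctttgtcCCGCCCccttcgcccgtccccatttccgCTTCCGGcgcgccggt
Ndufa12, chr10:94198785-94199034, plus strand: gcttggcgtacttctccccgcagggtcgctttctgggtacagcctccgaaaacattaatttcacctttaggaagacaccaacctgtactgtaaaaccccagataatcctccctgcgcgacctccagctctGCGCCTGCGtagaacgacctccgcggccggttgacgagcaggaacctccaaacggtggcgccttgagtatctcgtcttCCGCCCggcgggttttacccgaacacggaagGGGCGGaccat
Atp5g3, chr2:73911327-73911576, minus strand: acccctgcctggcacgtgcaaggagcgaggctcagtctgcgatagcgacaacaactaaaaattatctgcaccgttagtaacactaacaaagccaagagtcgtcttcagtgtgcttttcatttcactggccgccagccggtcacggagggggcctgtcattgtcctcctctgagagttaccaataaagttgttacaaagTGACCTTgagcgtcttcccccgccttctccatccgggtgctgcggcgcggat
Cycs, chr6:50566570-50566819, minus strand: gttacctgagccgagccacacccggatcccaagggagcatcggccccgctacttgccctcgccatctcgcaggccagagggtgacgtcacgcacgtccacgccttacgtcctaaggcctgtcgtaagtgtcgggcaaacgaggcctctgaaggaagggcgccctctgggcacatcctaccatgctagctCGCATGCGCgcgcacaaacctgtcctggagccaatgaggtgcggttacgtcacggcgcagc
Within the printed bases, which leave out the 50 after the start that the shares above include, the Cox5a window held an SP1 match alone, in reverse, 13 bases before the start. The Cox6a1 window was the one of complex IV with NRF1 matches, which lay 162 bases before the start on both strands of a palindrome and again 116 bases before it, beside matches to SP1 and an ETS match in reverse 16 bases before the start. Ndufa12 held an NRF1 match 120 bases before the start and SP1 matches at 42 and 11 bases. Atp5g3 held an ESRRA match in reverse at 52 bases, and Cycs an NRF1 match in reverse at 61 bases. Over the whole windows of 300 bases, Cox6a1, Ndufa12, Atp5g3 and Cycs had an NRF1 match, and Cox5a had none. A match is a description of the sequence and not a site of binding.

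Complex I, the NADH dehydrogenase, takes up electrons through the core subunits of its peripheral arm. Ndufv2, an iron-sulfur subunit of that arm, read 259.9 in parietal, 70.6 in zymogenic and 68.1 in pit cells. Ndufv1, which binds NADH, read 236 in parietal, 152 in zymogenic and 104 in pit cells. Ndufs8, another iron-sulfur subunit, read 501 in parietal, 252 in zymogenic and 196 in pit cells. All were highest in parietal cells, and in Ndufv2 the values of zymogenic and pit cells were level. Ndufs3 read 155 in parietal, 93.3 in zymogenic and 55.5 in pit cells, and Ndufs7, near the quinone site, read 219 in parietal, 163 in zymogenic and 108 in pit cells. Over these 5 core subunits the median was 0.74 for parietal minus zymogenic, 1.36 for parietal minus pit and 0.55 for zymogenic minus pit, and pit cells had the lowest value in each. The sixth, Ndufs1, the largest iron-sulfur subunit, was just above the floor in parietal cells alone, with 24.9 in parietal, 10.3 in zymogenic and 5.92 in pit cells.

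The accessory subunits surround that core and differed more among themselves, from 0.13 to 2.33 for parietal minus pit over 21 of them. The largest difference was in Ndufa12, with 161 in parietal, 62.9 in zymogenic and 31.9 in pit cells. Ndufb3 read 100.4 in parietal, 38.3 in zymogenic and 27.7 in pit cells. Ndufb5 read 100.2 in parietal, 36.3 in zymogenic and 30.1 in pit cells. These subunits had low values in both zymogenic and pit cells. In Ndufa5, by contrast, zymogenic cells were the lowest, with 162 in parietal, 49.9 in zymogenic and 72.7 in pit cells. Ndufa6 read 116 in parietal, 31.1 in zymogenic and 36.6 in pit cells. Its zymogenic minus pit of −0.23 lay within the scatter of 0.49 between probe sets of 1 gene. Ndufb6 read 127 in parietal, 62.2 in zymogenic and 44.8 in pit cells. Ndufa7 read 91.0 in parietal, 43.8 in zymogenic and 33.9 in pit cells, but a further probe set of it gave 33.3 in parietal, 55.9 in zymogenic and 39.0 in pit cells, so its probe sets did not give 1 order. These 7 and Ndufv2 were the 8 members of complex I at least 2-fold higher in parietal cells than in either other lineage. Over all complexes 16 of 55 members were, against 11.3% of all genes. Of the 6 of them that had other probe sets above the floor on every array, Ndufa12, Ndufb6, Ndufv2 and Uqcrc2 met the same limits on all of them, and Ndufa7 and Atp5a1 did not.

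Other accessory subunits were closer to level or had another order. Ndufa2 read 236 in parietal, 169 in zymogenic and 216 in pit cells, the smallest parietal minus pit of the complex at 0.13. Ndufb9 read 552 in parietal, 407 in zymogenic and 414 in pit cells, with a parietal minus pit of 0.41. Ndufb7 read 1082 in parietal, 335 in zymogenic and 618 in pit cells, which gave it the most negative zymogenic minus pit of the measured complex I members (−0.88). Ndufa1 went the other way and was, of the 55 members above the floor on every array, the one highest in zymogenic cells, with 120.4 in parietal, 173 in zymogenic and 63.7 in pit cells. Ndufb11 read 298 in parietal, 223 in zymogenic and 101 in pit cells and was at least 2-fold lower in pit cells than in either other lineage. Among the 55 members that held for Ndufb11 and for Atp5c1 of complex V, 2 in all, against 5.65% of all genes. The remaining 9 measured on every array (Ndufa3, Ndufa8, Ndufa9, Ndufa13, Ndufb2, Ndufb8, Ndufb10, Ndufc1 and Ndufv3) had a parietal minus pit between 0.67 and 1.63. Ndufa10 and Ndufs4 were above the floor in parietal cells alone, at 26.9 and 26.6, and Ndufb1, Ndufb4 and Ndufs5 in none by the probe sets used. Brighter probe sets of Ndufb4 and Ndufs5 were left out because they name several genes. That of Ndufb4, Ndufb4b and Ndufb4c read 49.1 in parietal, 26.1 in zymogenic and 14.5 in pit cells. That of Ndufs5 and Ndufs5-ps read 18.8 in parietal, 24.5 in zymogenic and 19.3 in pit cells.

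Ndufa4, which is now placed with complex IV although its symbol is of complex I, read 86.9 in parietal, 38.3 in zymogenic and 18.8 in pit cells, the last being under the floor. Parietal was thus at least 3.74-fold above pit, a difference that no measured member named Cox had. Its relative Ndufa4l2, an isoform known from hypoxic cells, was under the floor throughout, with 10.8 in parietal, 19.0 in zymogenic and 12.8 in pit cells. Ndufc2, a subunit of the membrane arm, read 99.7 in parietal, 38.8 in zymogenic and 22.7 in pit cells, and parietal was at least 4.29-fold above pit.

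In complex II, succinate dehydrogenase, the catalytic subunits differed from each other. Sdhb, the iron-sulfur subunit, read 387 in parietal, 164 in zymogenic and 168 in pit cells, at least 2-fold higher in parietal cells than in either other lineage. Sdha, the flavoprotein, read 71.5 in parietal, 48.5 in zymogenic and 58.3 in pit cells, values that lay close together. The membrane anchors were near the floor in parietal and pit cells and under it in zymogenic cells. Sdhc read 25.9 in parietal, 12.0 in zymogenic and 32.7 in pit cells. Sdhd read 32.8 in parietal, 9.61 in zymogenic and 27.8 in pit cells.

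In complex III the cytochrome and the core proteins had the order of most complex I members, with pit cells lowest. Cyc1, the cytochrome c1 subunit, read 253 in parietal, 102 in zymogenic and 75.7 in pit cells. The core protein Uqcrc2 read 254 in parietal, 82.1 in zymogenic and 72.2 in pit cells. Its partner Uqcrc1 read 129 in parietal, 65.7 in zymogenic and 45.5 in pit cells. In the small subunits Uqcrb and Uqcr11 zymogenic cells were lowest. Uqcrb, near the quinone site, read 1334 in parietal, 389 in zymogenic and 589 in pit cells. Uqcr11 read 119 in parietal, 65.4 in zymogenic and 76.6 in pit cells. Zymogenic minus pit of Cyc1 (0.43), Uqcrc2 (0.19) and Uqcr11 (−0.23) lay within the scatter of 0.49 between probe sets of 1 gene. Cyc1, Uqcrc2 and Uqcrb were at least 2-fold higher in parietal cells than in either other lineage. Uqcrq, another small subunit, read 58.5 in parietal, 65.9 in zymogenic and 22.6 in pit cells, which put parietal at least 2.51-fold and zymogenic at least 2.83-fold above pit, where it was under the floor. Uqcrfs1, the Rieske iron-sulfur protein, was above the floor in parietal cells alone, with 38.2 in parietal, 8.45 in zymogenic and 18.0 in pit cells. Uqcr10 was above it in pit cells alone, at 24.0, and Uqcrh in none.

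Cycs, the electron carrier between complexes III and IV, had the lowest zymogenic value relative to the other arrays of all members measured. It read 372 in parietal, 26.3 in zymogenic and 187 in pit cells. Parietal was 14.1-fold above zymogenic and 1.99-fold above pit, and zymogenic minus pit was −2.83 on the log2 scale. The zymogenic value lay just above the floor. A further probe set of Cycs gave 82.6 in parietal, 25.3 in zymogenic and 48.8 in pit cells, the same order with smaller differences.

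Complex IV, cytochrome c oxidase, surrounds a catalytic core encoded in mitochondrial DNA with nuclear subunits, of which several exist as isoforms. Cox6a1, the widely expressed form of subunit 6a, read 1254 in parietal, 304 in zymogenic and 896 in pit cells. Cox5a read 423 in parietal, 113 in zymogenic and 340.0 in pit cells. Cox6b1, which faces the cytochrome c side, read 738 in parietal, 269.7 in zymogenic and 688 in pit cells. In all 3 zymogenic cells were at least 2-fold below both other lineages, and parietal and pit cells lay close together. The same held for Cox7a2, with 305 in parietal, 109 in zymogenic and 229.6 in pit cells. It also held for Cox7a2l, a related protein that joins complexes III and IV into supercomplexes, with 461 in parietal, 209.6 in zymogenic and 501 in pit cells. A further probe set of Cox7a2l read 234.5 in parietal, 87.7 in zymogenic and 115 in pit cells, where zymogenic was not 2-fold below pit and parietal was the highest. Over all members 8 of 55 were this low in zymogenic cells, against 16.9% of all genes. They were these 5, Atp5d and Atp5k of complex V, and Cycs. Of the 7 that had other probe sets above the floor on every array, Cox5a, Cox6b1 and Cox7a2 met the same 2-fold limits on all of them, and Cox7a2l, Atp5d, Atp5k and Cycs did not.

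The other 4 measured subunits of complex IV were also lowest in zymogenic cells, but by less than 2-fold against one or both of the other lineages. Cox5b, which binds zinc, read 643 in parietal, 266 in zymogenic and 474 in pit cells. Cox4i1, a subunit through which the enzyme is known to be regulated, read 352 in parietal, 185 in zymogenic and 305 in pit cells. Cox6c read 142 in parietal, 95.4 in zymogenic and 121 in pit cells, and its zymogenic minus pit was the nearest to 0 in the complex at −0.34. A further probe set of Cox6c put zymogenic above pit, with 94.3 in parietal, 71.7 in zymogenic and 62.2 in pit cells. Cox8a read 60.0 in parietal, 31.9 in zymogenic and 54.9 in pit cells. Its further probe set gave 28.2 in parietal, 53.8 in zymogenic and 59.4 in pit cells, in which the parietal value was the lowest.

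The isoforms of complex IV known from particular tissues were dim. Of Cox4i2, Cox6a2, Cox6b2, Cox7a1, Cox7b2, Cox8b and Cox8c, 0 of 7 were above the floor on all arrays. Of all 18194 genes 1186 were above it on all arrays and 22.7% on any, so 0 of 7 does not set these isoforms apart. Cox7a1, the heart and muscle form of subunit 7a, was above it in parietal cells alone, with 31.7 in parietal, 15.9 in zymogenic and 7.99 in pit cells. Cox6a2, the heart and muscle form of 6a, was above it in pit cells alone, with 19.5 in parietal, 21.6 in zymogenic and 26.3 in pit cells. Cox8c, a testis form, read 24.0 in parietal, 37.4 in zymogenic and 14.5 in pit cells. These values lie close to the floor. The 9 muscle markers summed to 190.1 in parietal, 215 in zymogenic and 149 in pit cells, with 2, 2 and 1 of them above the floor in the same order. Cox7c was under the floor throughout, with 2.95 in parietal, 7.43 in zymogenic and 3.10 in pit cells.

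**Figure D3:**
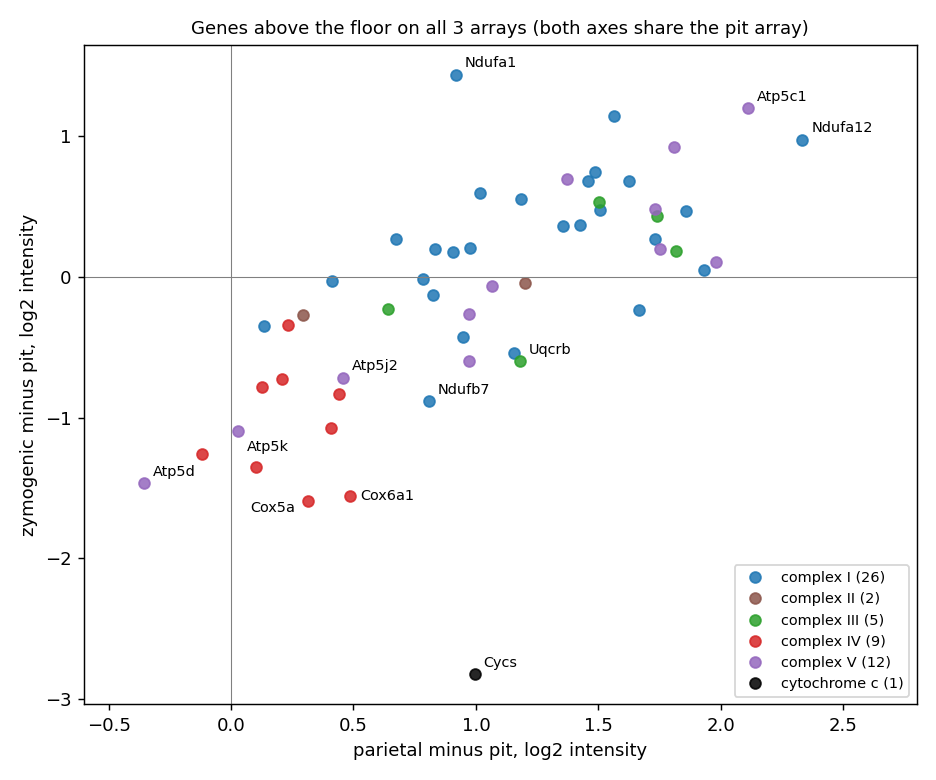
Zymogenic minus pit (vertical axis) against parietal minus pit (horizontal axis), both as log2 differences of intensity, for the 55 members above the floor on all arrays, coloured by complex. The axes share the pit array, so points on a slope are no sign of a relation. Complex IV, Atp5d, Atp5k and Atp5j2 lie at the lower left, most of complexes I, III and V at the upper right, and Cycs at the bottom.

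Complex V members are given by their part of the enzyme. In the catalytic F1 head, Atp5a1 (alpha) read 309 in parietal, 141 in zymogenic and 148 in pit cells. Atp5c1 (gamma) read 177 in parietal, 94.6 in zymogenic and 41.1 in pit cells. Atp5d (delta), of the same head, read 631 in parietal, 293 in zymogenic and 809 in pit cells, the order of Cox7a2l. Parietal minus pit over these 3 thus ran from −0.36 to 2.11. Atp5b, the catalytic beta subunit, was just above the floor in parietal cells alone, with 27.4 in parietal, 20.0 in zymogenic and 3.51 in pit cells. Atp5e (epsilon) read 25.8 in parietal, 6.33 in zymogenic and 27.8 in pit cells.

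In the membrane sector, the c ring turns with the proton flow and is built from 1 protein encoded by 3 genes. Atp5g3 read 263 in parietal, 71.7 in zymogenic and 66.6 in pit cells. Atp5g2 read 138 in parietal, 86.4 in zymogenic and 53.2 in pit cells. Atp5g1 was above the floor in parietal cells alone, with 67.3 in parietal, 9.30 in zymogenic and 10.5 in pit cells, at least 2.89-fold above each of the others. In all 3 genes the parietal value was the highest. The peripheral stalk, which holds the head still, had a median parietal minus pit of 1.74 over all 4 subunits. Atp5h read 418 in parietal, 142 in zymogenic and 124 in pit cells. Atp5pb read 180.1 in parietal, 76.0 in zymogenic and 54.3 in pit cells. Atp5j, whose zymogenic value stood between the others, read 153 in parietal, 83.2 in zymogenic and 43.7 in pit cells. Atp5o, which confers the sensitivity to oligomycin, had zymogenic cells lowest, with 204 in parietal, 86.5 in zymogenic and 104 in pit cells. Its zymogenic minus pit of −0.27 lay within the scatter of 0.49 between probe sets of 1 gene.

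The small membrane subunits, which are known for their part in pairing ATP synthases, had a median parietal minus pit of 0.46 and zymogenic minus pit of −0.72 over 3 genes. Atp5k (e) read 267 in parietal, 123 in zymogenic and 262 in pit cells. Atp5j2 (f) read 390.4 in parietal, 173 in zymogenic and 285 in pit cells. Atp5l (g) read 448 in parietal, 151 in zymogenic and 228 in pit cells. Zymogenic cells had the lowest value in each, and in Atp5k parietal and pit cells were level. Atp5md was under the floor in zymogenic cells, with 71.5 in parietal, 19.4 in zymogenic and 29.2 in pit cells, and Atp5mpl in all. In complex V as a whole Atp5a1, Atp5g3, Atp5h and Atp5pb were at least 2-fold higher in parietal cells than in either other lineage. For Atp5a1 this rested on 1 of its probe sets, since a further one read 144.5 in parietal, 118 in zymogenic and 140.8 in pit cells.

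The split between complexes IV and I was set against brightness, choice of probe set and scaling. As a property of the probe sets and not a level of RNA, mean intensity over the arrays had a median of 292 for the measured members of complex IV and 126 for those of complex I. Among members with a mean of at least 100, parietal minus pit was 0.27 over 8 of complex IV and 0.97 over 16 of complex I, and zymogenic minus pit was −1.16 and 0.28. The brightness of these still differed, with a median of 341 in complex IV and 191 in complex I, and its part in the split was not tested. Log2 differences between probe sets of 1 gene scattered with an SD of 0.52, 0.43 and 0.49 for parietal minus zymogenic, parietal minus pit and zymogenic minus pit over all genes, and single members closer than that are not told apart. The scatter is between probe sets on the same arrays and holds no error between mice, dissections or arrays. A difference beyond it is therefore not shown to be one between lineages. A further 86 probe sets of 49 members had not been used, and 32 of them were above the floor on every array. Their sign matched that of the main probe set in 21 of 23, 21 of 24 and 21 of 23 genes for the 3 pairs. Complex IV had a median of 1.39, 0.58 and −0.73 on them and complex I 0.97, 1.54 and 0.57. Further probe sets of complexes III and V covered 1 and 4 genes, with parietal minus pit of 2.12 and 0.13, where the main probe sets of the same genes had 1.82 and 0.24. The difference of the complex IV median minus the complex I median lay between −1.27 and −0.69 for parietal minus pit and between −1.94 and −0.54 for zymogenic minus pit over 11 alternatives, and between −0.20 and 0.63 for parietal minus zymogenic. Scaling each array by 1 factor cancels in this difference unless it changes which members pass the floor. Scaling to 1 median gave −0.95 for parietal minus pit and scaling to BioB and BioC −0.94, against −0.94 as deposited, so these alternatives could not check the split. Scaling moved the level of all genes as well. After quantile normalization the complex IV median was −0.05 for parietal minus pit, against −0.10 for all genes, and 10 members were at least 2-fold higher and 3 lower on the zymogenic than on the pit array, so that the tally over all members turned round, while the difference of complex IV minus complex I was −1.35 against −1.34 as deposited. Relative to the median of all genes, zymogenic minus pit of complex IV was −0.91 as deposited and −0.64 after quantile normalization, and that of complex I was 0.43 and 0.71.

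**Figure D4:**
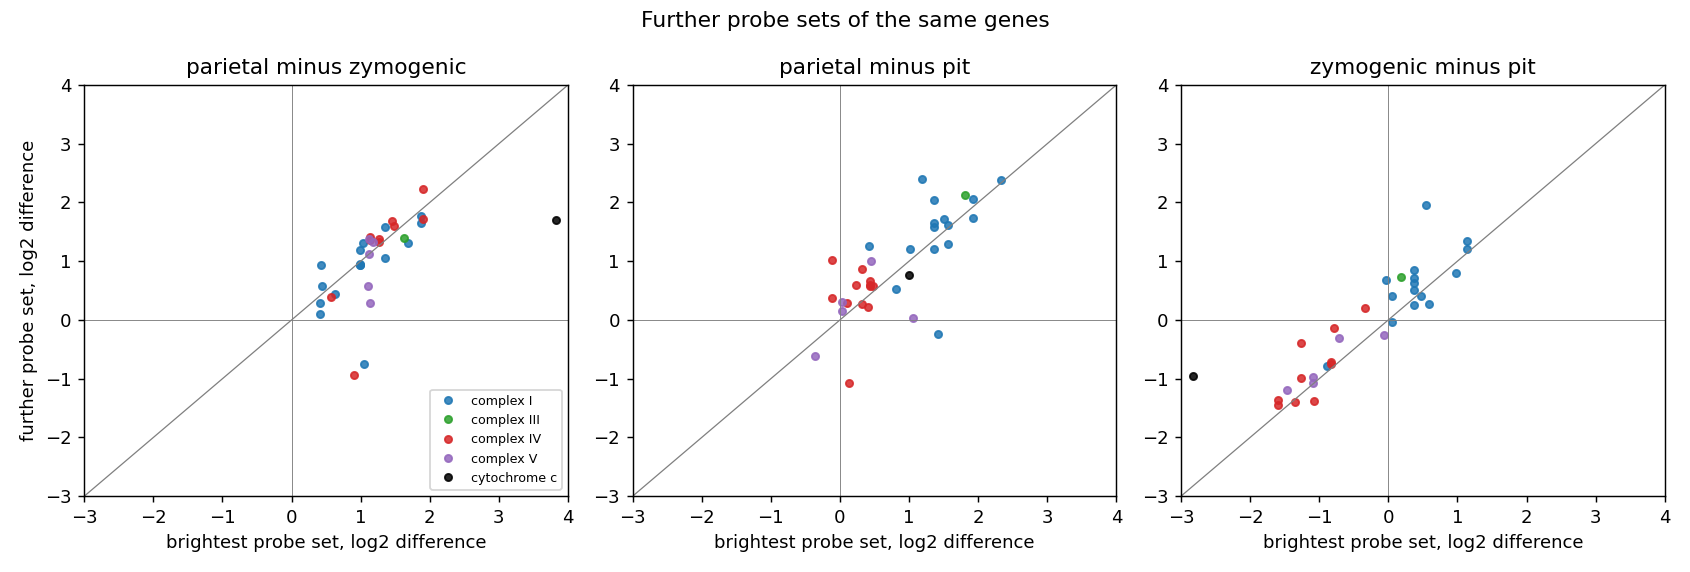
Log2 difference from further probe sets of a member (vertical axis) against that from its main probe set (horizontal axis), with a panel for each pair of arrays and points coloured by complex. Each point is a further probe set above the floor on both arrays, and the main probe set is the brightest of its gene. Points near the diagonal had the same difference from both. The low point of complex IV in the panels of the parietal array is Cox8a, the low point of complex I there is Ndufa7, and the point far to one side is Cycs.

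Other genes measured in the same cells are given beside these values. The pit markers, like complex IV and Cycs, were high on the parietal and pit arrays and low on the zymogenic array, and the part of pit-cell RNA in this likeness was not tested. The 6 endocrine markers summed to 39.0 in parietal, 955 in zymogenic and 65.0 in pit cells, with 0, 5 and 1 above the floor in that order. Transcripts known from endocrine cells were thus on the zymogenic array, and their part in its values was not tested. The spike-in gap lay at the parietal array and the actin ratio was highest there and lowest on the pit array, and their part in the differences was not tested. Of the carriers that serve complex V, Slc25a5, an exchanger of ADP and ATP, read 346 in parietal, 101 in zymogenic and 108 in pit cells. Slc25a3, the phosphate carrier, read 461 in parietal, 242 in zymogenic and 136 in pit cells. These had the parietal value highest, as had Vdac1, a pore of the outer membrane, with 219 in parietal, 48.0 in zymogenic and 156 in pit cells. Atpif1, the inhibitor protein of complex V, read 173 in parietal, 24.1 in zymogenic and 59.7 in pit cells, at least 2-fold higher in parietal cells than in either other lineage. Of 72 mitochondrial ribosomal proteins with a probe set, 37 were above the floor on some array. Their medians were 0.62 for parietal minus zymogenic (18 genes), 0.96 for parietal minus pit (17 genes) and 0.32 for zymogenic minus pit (14 genes). Of the assembly factors, 2 of 14 for complex I and 8 of 17 for complex IV were above the floor on any array, as were 22.7% of all genes. Cox17, a copper chaperone for complex IV, read 165 in parietal, 55.8 in zymogenic and 100.2 in pit cells.

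Of the 13 subunits encoded in mitochondrial DNA, ND5 of complex I is the one that the gene table names. It read 223 in parietal, 133 in zymogenic and 277 in pit cells. Zymogenic cells were the lowest and pit cells the highest, whereas the nuclear-encoded core subunits of complex I had pit cells lowest. The other subunits are not analysed here. Of 14 regulators known for acting on respiratory chain genes, 3 were above the floor on any array, as were 22.7% of all genes. The count thus does not set the regulators apart. Yy1, whose motif was searched above, read 29.5 in parietal, 29.9 in zymogenic and 30.6 in pit cells. Esrra, whose motif was searched as well, was above the floor in pit cells alone, with 16.5 in parietal, 1.79 in zymogenic and 25.4 in pit cells. Esrrb was above it in parietal cells alone, at 26.4. Ppargc1a, Nrf1, Gabpa and Tfam were under the floor on every array.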

How the data were processed

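RNA of 3 lineages was measured on 1 array each. The authors deposited 1 intensity, not on a log scale, for each probe set on each array. How probes were summarised, corrected for background and scaled is not given in the labels, and the deposited values were used without further scaling. Of 45101 probe sets, 64 are controls, 34958 name 1 gene in the platform's gene table, 932 name several and 9160 are not in the table. Those naming several genes were left out, 9 of them with a symbol that fits the membership rule. Ndufa11 and Ndufs6 fit the rule but were named by such probe sets alone, so they are not among the 83 members. The probe set of Ndufs6 and Ndufs6b read 84.5 in parietal, 44.4 in zymogenic and 56.7 in pit cells. All 83 members have a RefSeq entry. The members, the 17 gene lists, the named genes and the tests were chosen with earlier results of these data known. Named in full were members at least 2-fold apart from both other arrays, the extremes of parietal minus pit, bounds and isoform pairs.

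For the floor of 23.3, the 95th percentile of 78 receptor probe sets was taken on each array and the highest kept. Lower values were set to the floor, then log2 was computed, and a fold against them is a lower bound. No p-value was computed, and the number of arrays limits the precision. The counting of differences was tested on simulated data. Python 3.11.15, numpy 2.4.6 and pandas 2.3.3 were used.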

Additional observations from a re-analysis of the deposited data

How the results depend on the processing

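With 1 array per lineage no array could be left out. No paired analysis was possible because the result comes from no test. Of 228 recomputed medians 196 moved by less than the scatter between probe sets of 1 gene. None passed from beyond that scatter on one side to beyond it on the other. The median of zymogenic minus pit over all members did change sign, from −0.01 as deposited to 0.50 with quantile normalization, where the scatter was 0.49. Of 48 recomputed counts 27 stayed within 1.5 times. The causes of the shifts beyond these limits were not tested. A floor at the 99th percentile left no member. Among bright members and further probe sets, both added after seeing the data, the split of complex IV from complex I was still there. None of the alternatives for the difference of complex IV minus complex I was planned beforehand. Values near the floor cannot be ranked.

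Scaling to BioB and BioC moved the median of all genes to 1.40 for parietal minus zymogenic and 1.09 for parietal minus pit. Parietal minus zymogenic then became 2.30 over all members and 2.17, 2.13, 2.36, 2.43 and 2.37 in complexes I to V. Parietal minus pit became 2.20 and 2.39, 1.49, 2.73, 1.46 and 2.40. Quantile normalization gave parietal minus zymogenic of 0.36 over all members and 0.18, 0.22, 0.44, 0.42 and 0.40 in complexes I to V, where the median of all genes was 0.02. It gave zymogenic minus pit of 0.50 over all members, 0.77 in complex I and −0.58 in complex IV. With every gene included at the floor, complex IV had 0.57 for parietal minus zymogenic and −0.34 for zymogenic minus pit, and the difference of complex IV minus complex I for zymogenic minus pit was −0.54. That difference was −1.94 with transcript-specific probe sets. Complex II is given as 1.2 for parietal minus pit with the mean over probe sets, with transcript-specific probe sets and with bright members, but each of these left 1 gene, Sdhb, at its own value. Further probe sets gave 2.12 in complex III and 0.13 in complex V for parietal minus pit, where the main probe sets of the same 1 and 4 genes had 1.82 and 0.24, and 0.73 and −0.67 for zymogenic minus pit, where these had 0.19 and −0.90.

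The 32 members at least 2-fold higher on the parietal than on the zymogenic array became 6 with quantile normalization, 56 with scaling to BioB and BioC, 16 with transcript-specific probe sets, 49 at 1.5-fold and 2 at 4-fold. The 28 of parietal over pit became 57 with scaling to BioB and BioC, 18 with transcript-specific probe sets, 17 among bright members and 2 at 4-fold. The 3 of zymogenic over pit became 10 with quantile normalization, 6 with the floor at the 90th percentile, 1 with the floor as a pseudocount, 1 with transcript-specific probe sets, 10 at 1.5-fold and 0 at 4-fold. The 16 above both others on the parietal array became 3 with quantile normalization, 52 with scaling to BioB and BioC, 8 with transcript-specific probe sets, 9 among bright members, 36 at 1.5-fold and 0 at 4-fold.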
